A study of Mus musculus with 10 samples.

Results

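The nuclear factor I (NFI) family of transcription factors has 4 genes in the mouse, *Nfia*, *Nfib*, *Nfic* and *Nfix*. They were taken by symbol from the 34590 genes listed in the bulk RNA-seq counts of 10 libraries of handpicked cochlear cells, and all 4 had reads in every library and passed the filter on low counts. The libraries were duplicates of 5 cell types: supporting cells, SCs (P26); converted hair cells, cHCs (P33); outer hair cells, OHCs (P7) and OHCs (P22); and inner hair cells, IHCs (P74). The comparisons address how transcription factor genes differ between SCs, the hair cells that Atoh1 makes from SCs, and native hair cells.

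SCs came from mice with Fgfr3-iCreER and a Cre-dependent tdTomato reporter at Rosa26 (CAG-loxP-stop-loxP-tdTomato), at P26 (library 11) and P27 (library 12) after tamoxifen. cHCs carried the same Fgfr3-iCreER and tdTomato together with Atoh1-HA and alpha9 AChR-EGFP, a hair cell reporter, and were picked at P33 (libraries 13 and 16) for both colours. By the study's methods cHCs too were taken after tamoxifen, given on the same days as for SCs, and so longer after it than SCs. OHCs (P7), libraries 14 and 15, are labelled as prestin-YFP knock-in cells (YFP/+), whereas the study's methods name a prestin-CreERT2 line with tdTomato, also given tamoxifen. OHCs (P22) were prestin-YFP knock-in cells (YFP/+) whose labels read as P21 for one library and P22 for the other, named by these ages in what follows. In these labels an m stands before the age of the P21 library and an f before that of the P22 library. If the letters mean sex, sex and library cannot be told apart in this cell type. The study's methods give slightly later ages for these cells. IHCs came from Pval-Cre mice with the same tdTomato reporter at P74 and P75, and their libraries are named by these ages too. Fgfr3-iCreER marks Deiters' and pillar cells, so SCs here are those types, the cHCs are the subset of such cells that had switched on the EGFP reporter, and each library is a pool of picked cells. The study calls the libraries of a type biological duplicates. The labels do not tie them to animals, and p-values measure the spread between these samples only.

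NFI proteins bind DNA as dimers at a palindrome, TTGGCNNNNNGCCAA, through a region near the start of the protein that is much the same in all members, while the rest of the protein differs and activates or represses transcription. In the central nervous system NFIA and NFIB act with SOX9 when progenitors turn from making neurons to making glia, and NFI factors mark mature glia, among them the Müller glia of the retina. SCs are the glia-like cells of the organ of Corti, and they share SOX9 and SOX2 with neural glia.

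The members are similar enough in coding sequence to raise the question of whether a read can be told to belong to 1 of them. In each gene the longest coding exon has 532 bases and codes for most of the DNA-binding region. Of these bases, 351 (66%) are the same in all 4 genes, and identity between pairs runs from 75.8% (*Nfia* and *Nfic*) to 82% (*Nfic* and *Nfix*). The most alike 90 bases of that exon, bases 53 to 142, are printed here because they are where misassigned reads would be most likely, read on the strand of each gene from the GENCODE transcripts of the mm9 build. Capitals mark bases that differ from *Nfia*.
Nfia, chr4:97449825-97449914, plus strand: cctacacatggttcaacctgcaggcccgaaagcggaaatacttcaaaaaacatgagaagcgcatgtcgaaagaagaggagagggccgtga
Nfib, chr4:82144532-82144621, minus strand: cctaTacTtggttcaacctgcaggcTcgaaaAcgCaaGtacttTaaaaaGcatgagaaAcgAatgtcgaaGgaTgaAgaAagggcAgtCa
Nfic, chr10:80883402-80883491, minus strand: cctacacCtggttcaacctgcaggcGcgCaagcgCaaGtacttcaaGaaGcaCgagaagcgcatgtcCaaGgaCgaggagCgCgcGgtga
Nfix, chr8:87296073-87296162, minus strand: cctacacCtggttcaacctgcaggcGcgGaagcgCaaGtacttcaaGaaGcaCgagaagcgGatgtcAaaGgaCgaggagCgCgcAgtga
Even there, *Nfib* has 16, *Nfic* 14 and *Nfix* 15 differences from *Nfia*. The longest stretch that is the same in all 4 genes within the exon has 17 bases. Over whole protein-coding transcripts no run of 50 bases is shared by any pair of members, and the only shared runs of 25 bases are 12 between *Nfic* and *Nfix*. Paralogous reads of the length sequenced here could therefore be separated by sequence.

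The genes lie on 3 chromosomes of the mm9 build. *Nfia* (ENSMUSG00000028565) spans chr4:97439425-97868605 on the plus strand and *Nfib* (ENSMUSG00000008575) chr4:81936077-82351654 on the minus strand. *Nfic* (ENSMUSG00000055053) spans chr10:80858931-80893750 and *Nfix* (ENSMUSG00000001911) chr8:87223775-87324243, both on the minus strand. Their exons cover 10945, 14957, 6534 and 7363 bases. Antisense genes share few exon bases with them: *E130114P18Rik* 4 bases with *Nfia*, *Gm16104* 72 with *Nfic*, and *Lyl1* 4 and *G430095P16Rik* 137 with *Nfix*, none in *Nfib*. *E130114P18Rik* reached 33.5 CPM, and the other 3 stayed at or below 2.39. CPM are the reads of a gene divided by the library's reads on genes that passed the filter, scaled to a fixed total. All CPM computed here also carry TMM scaling, which corrects for the make-up of each library. The strand setting of the counting is not given in the sources used here, so reads in these shared bases cannot be told apart.

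The counts of libraries 11, 13, 15 and 16 were attached to each other's sample records, as a match of every file with the study's own CPM table by library name showed, and the values here follow that match. As attached, the file under SC library 11 is that of cHC library 13, the file under cHC library 13 is that of OHC (P7) library 15, the file under library 15 is that of cHC library 16, and the file under library 16 is that of SC library 11. Taken as attached, no member and no gene of the list described later passed in any comparison, and the values of the called members are given both ways. Over all 16891 genes edgeR then called 1 in cHCs against the native hair cells and none in the other comparisons. A call lost in that setting is thus not particular to the genes described here.

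Libraries held between 15016129 and 40518766 reads counted on genes. The hair cell marker *Pou4f3*, a transcription factor that hair cells need, was at 0.355 and 0.584 CPM in SCs and between 235 and 560 CPM in hair cells of all kinds, and *Slc26a5*, which encodes prestin, the motor protein of OHCs, was highest in OHCs (P22). *Slc17a8*, the glutamate transporter of IHC synapses, was at 1763 and 1907 CPM in IHCs and at most 75.5 CPM elsewhere. Summed over 12 hair cell markers, SCs held 363 and 364 CPM and hair cells between 5302 and 9431 CPM. Markers of other cell types were present in some libraries. The summed level of 10 SC markers was 1788 to 2378 CPM in SCs, 887 to 1255 in cHCs, 834 to 981 in IHCs, 111 to 376 in OHCs (P7) and 10.3 to 19.7 in OHCs (P22), where *Sox2* had no reads in either library. All 10 had reads in both libraries of SCs, cHCs and OHCs (P7), and 9 of 10 in OHCs (P22) and in IHCs. In cHCs *Fgfr3* (458 and 431 CPM) and *Prox1* (247 and 293 CPM) held the largest parts of the sum and were above both SC libraries. In IHCs this was so for *Gjb2* (611 and 468 CPM). In each of these 2 types the rest of the list lay below both SC libraries. Markers of mesenchyme and border cells summed to between 75 and 831 CPM, highest in SCs, those of glia to between 0.3 and 127, of neurons to between 0.823 and 771, of blood and immune cells to at most 26.8 and of endothelium to at most 2.08 CPM. In SCs the mesenchyme sum was mostly *Lum* (716 and 684 CPM), while *Pdgfra* of that list was highest in OHCs (P22) (401 and 250 CPM). Of the neuron list, *Snap25* was at 125 to 361 CPM in hair cells and at most 1.11 in SCs. *Tubb3* was at most 1.68 CPM in any library. The source of these reads was not tested. Library 15 of OHCs (P7) held the collagen genes *Col1a2* at 223 CPM and *Col3a1* at 119 CPM, chosen here after their values were seen. The P21 library of OHCs (P22) stood apart, with 14332 genes detected against 15138 to 18333 in the others, 41.3% of its reads in 10 genes against at most 33.2%, and a TMM scaling factor of 0.583 against at least 0.93.

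*Nfia* was highest in cHCs and lowest in OHCs (P22). Its level was 459 and 537 CPM in the cHC libraries 13 and 16. It was at 181 and 166 CPM in SCs (libraries 11 and 12), at 176 and 227 CPM in OHCs (P7) (14 and 15), and at 189 and 132 CPM in IHCs (P74 and P75 libraries). The P21 and P22 libraries of OHCs (P22) held 49.5 and 63.7 CPM. Both cHC libraries were above the other 8, as they were for 5.35% of all genes tested, and both OHC (P22) libraries were below the other 8, as for 6.25%. SCs, OHCs (P7) and IHCs overlapped.

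The order of *Nfia* by mean level was cHCs (498 ± 54.6 CPM; mean ± SD, n = 2), OHCs (P7) (201 ± 35.9), SCs (174 ± 10.4), IHCs (160 ± 40.5) and OHCs (P22) (56.6 ± 10.1). No neighbours in this order differed past the threshold, a false discovery rate (FDR) under 0.05 over all 16891 genes tested in edgeR's quasi-likelihood F-test. Duplicates differed at most 1.43-fold, the closest agreement of the 4 members.

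*Nfib*, needed for the maturation of the lung and for glia of the forebrain, was highest in SCs and lowest in OHCs (P22). SC libraries 11 and 12 held 184 and 183 CPM, above the other 8 libraries, as was the case for 7.97% of genes. It was at 105 and 118 CPM in cHCs (13 and 16), at 136 and 50.4 CPM in OHCs (P7) (14 and 15) and at 43.2 and 89.9 CPM in IHCs (P74 and P75 libraries). The P21 and P22 libraries of OHCs (P22) held 0.353 and 9.98 CPM, from 4 and 237 reads, the lowest of all. cHCs, OHCs (P7) and IHCs were not separated: the ranges of OHCs (P7) overlapped both of the others, and no neighbours in the order of means (SCs 183 ± 0.755, cHCs 112 ± 9.31, OHCs (P7) 93.3 ± 60.8, IHCs 66.5 ± 33, OHCs (P22) 5.17 ± 6.81 CPM; SD, n = 2) passed the threshold.

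*Nfic*, known for its part in forming tooth roots, was at similar levels in 4 of the 5 cell types. It was at 122 and 173 CPM in IHCs (P74 and P75 libraries), 129 and 158 CPM in cHCs (13 and 16), 158 and 50.8 CPM in OHCs (P7) (14 and 15), and 52.1 and 136 CPM in SCs (11 and 12). The P21 and P22 libraries of OHCs (P22) held 12.2 and 46.9 CPM. The other 4 cell types overlapped, and the P22 library lay just under the lowest of them, with the P21 library further down. Both were thus below the other 8 libraries in 3 of the 4 members, *Nfia*, *Nfib* and *Nfic*, a position that 6.25% of genes had. The means were 147 ± 36.4 in IHCs, 143 ± 20.2 in cHCs, 105 ± 76 in OHCs (P7), 94.2 ± 59.5 in SCs and 29.5 ± 24.6 CPM in OHCs (P22) (SD, n = 2), and no neighbours passed the threshold.

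*Nfix*, known from the switch to fetal muscle genes and from the quiescence of neural stem cells, differed from the other members in its order. SC libraries 11 and 12 held 103 and 150 CPM and the P74 and P75 libraries of IHCs held 27.2 and 55.9 CPM. It was low in cHCs, at 21.9 and 3.84 CPM (13 and 16), and in OHCs (P7), at 8.48 and 16 CPM (14 and 15). The OHC (P22) duplicates disagreed 7.9-fold, with 267 CPM in the P21 library, the highest of the 10, and 33.8 CPM in the P22 library. The mean for OHCs (P22), 151 ± 165 CPM, therefore rests on the P21 library. It was followed by SCs (127 ± 33.1), IHCs (41.6 ± 20.3), cHCs (12.9 ± 12.8) and OHCs (P7) (12.3 ± 5.35 CPM; SD, n = 2), with no neighbours past the threshold.

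**Figure D1:**
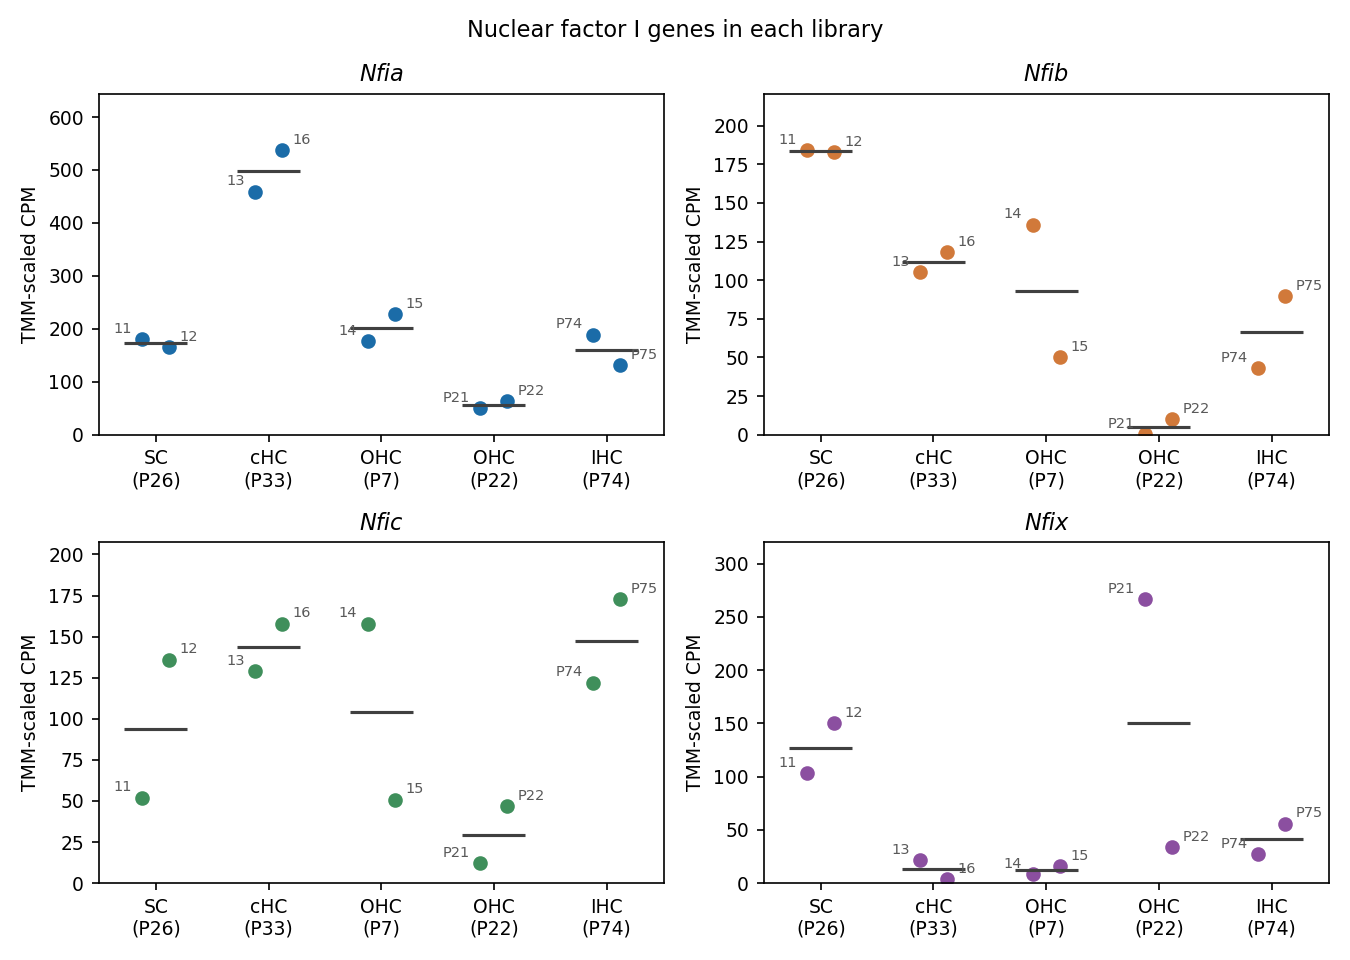
TMM-scaled CPM (y axis) of each member in the 5 cell types (x axis). Points are libraries with their numbers or ages and bars are means of 2. *Nfia* stands at 459 and 537 CPM in cHCs, above all other libraries, and *Nfix* at 267 CPM in the P21 library is far from its duplicate at 33.8.

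The members' levels can be compared with each other once divided by the length of their exons, as CPM per kb. On this scale the summed level of the family was 76.7 ± 6.97 in cHCs, 59.7 ± 12.6 in SCs, 47.3 ± 6.84 in IHCs, 42.3 ± 11.7 in OHCs (P7) and 30.5 ± 17.3 CPM per kb in OHCs (P22) (SD, n = 2). *Nfia* was 58.5% and 60.1% of that sum in the cHC libraries 13 and 16, against 32.5% and 22.1% in SCs (11 and 12). It was 31.8% and 60.9% in OHCs (P7) (14 and 15), and 40.7% and 23.1% in IHCs (P74 and P75 libraries). *Nfix* moved the other way, from 27.6% and 29.7% in SCs to 4.15% and 0.638% in cHCs, and was 2.28% and 6.41% in OHCs (P7). As means of the duplicates, SCs held the 4 members in nearly even parts, between 21% and 28.7%, while cHCs held mainly *Nfia* and *Nfic*. The SC libraries themselves differed. The largest part was *Nfia* (32.5%) in library 11 and *Nfic* (30.4%) in library 12, and the smallest *Nfic* (15.7%) and *Nfib* (17.8%).

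IHCs held *Nfic* as the largest part, 43.8% and 50.8% in the P74 and P75 libraries. The OHC (P22) libraries did not resemble each other in make-up: *Nfix* was 85% of the sum in the P21 library and 25.1% in the P22 library, and *Nfib* was 0.0552% and 3.65%, the lowest shares of all libraries. The ratio of *Nfia* to *Nfix* in CPM per kb was 1.18 and 0.745 in SCs, 14.1 and 94.1 in cHCs, 13.9 and 9.5 in OHCs (P7), 4.68 and 1.59 in IHCs, and 0.125 and 1.27 in OHCs (P22). In this ratio the cHC and OHC (P7) libraries lay above the other 6. These sums, shares and ratios are descriptions without a test.

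**Figure D2:**
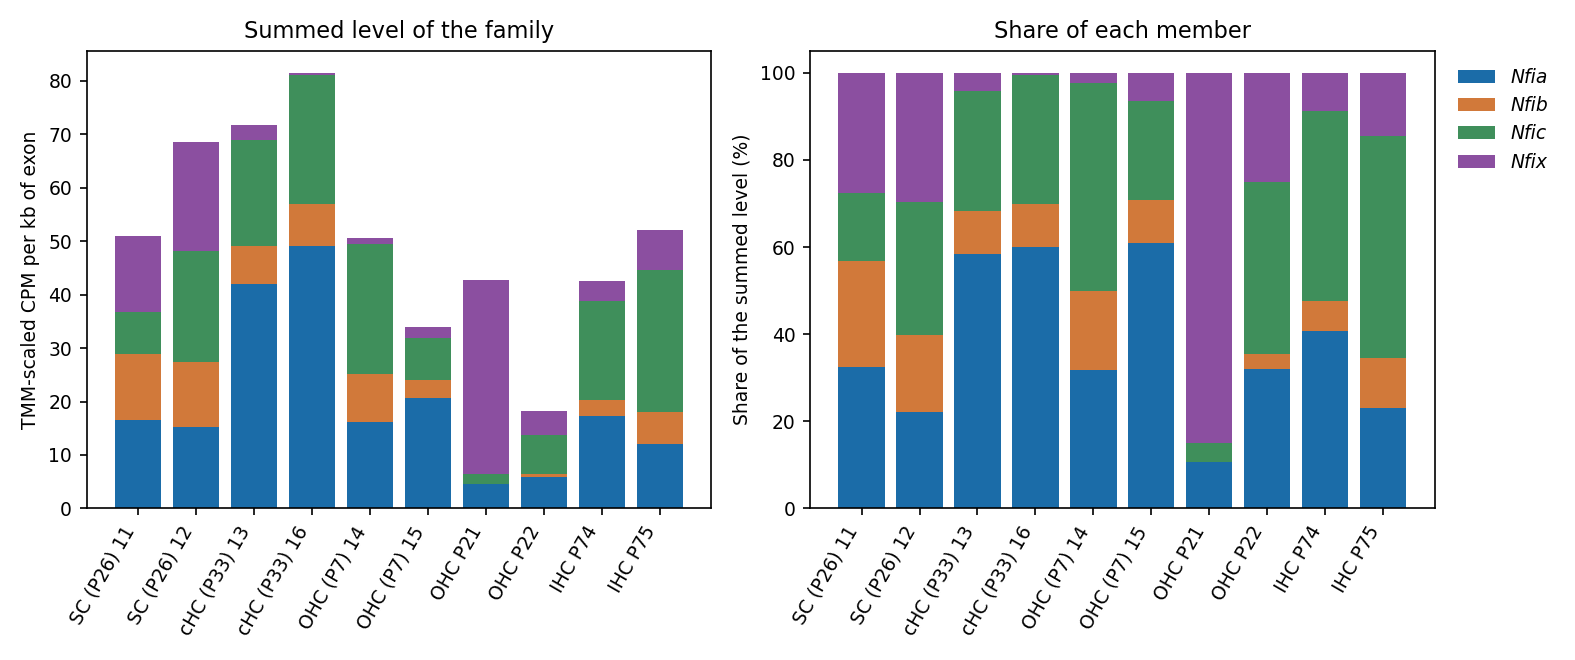
Summed level of the 4 genes in TMM-scaled CPM per kb of exon (left) and the share of each in that sum in % (right), for each of the 10 libraries on the x axis. Colours are members. *Nfia* holds 58.5% and 60.1% in cHCs, and *Nfix* 85% in the P21 library.

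In cHCs against SCs, *Nfia* was 2.87-fold higher (log2 fold change 1.52, SE 0.47, FDR = 0.169 in edgeR) and *Nfix* 9.86-fold lower (log2 fold change -3.30, SE 1.12, FDR = 0.21). All 4 pairs of libraries had these directions, but with the files as attached to the records *Nfia* was at -0.62 and *Nfix* at -0.53. *Nfib* (log2 fold change -0.71, SE 1.05, FDR = 0.813) and *Nfic* (0.61, SE 0.80, FDR = 0.783) differed by less than their error. With edgeR 0 of 4 members passed, against 1.84% of all genes, and 2 had an unadjusted p under 0.05. limma-voom, the method of the study, called *Nfia* (FDR = 0.0197), and DESeq2 called *Nfia* (FDR = 0.0407) and *Nfix* (FDR = 0.0298). Of all 16891 genes, limma-voom called 1065 there and DESeq2 1764, against 311 in edgeR. Without library 16 the value for *Nfix* was -2.53, and without library 13 it was -5.05.

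In OHCs (P22) against cHCs, *Nfia* was 8.8-fold lower, the clearest difference in the family (log2 fold change -3.14, SE 0.50, FDR = 0.00937 in edgeR). It was the only member called there, against 3.18% of genes, and stayed called without any 1 of the libraries, with FDRs between 0.00482 and 0.0473. With the files as attached to the records it was at -1.85 (FDR = 0.414). The SC marker sums, 887 to 1255 CPM in cHCs and 10.3 to 19.7 in OHCs (P22), moved with it, and their part was not tested. *Nfib* was 21.4-fold lower (log2 fold change -4.42, SE 1.21, FDR = 0.0771) and *Nfic* 4.85-fold lower (-2.28, SE 0.83, FDR = 0.178), whereas *Nfix* was 11.7-fold higher (3.55, SE 1.13, FDR = 0.126). These fell short of the threshold although all 4 pairs of libraries had the fitted direction. The values depended on the OHC (P22) library used: without the P21 library, *Nfib* came to -3.53 and *Nfix* to 1.35 (FDR = 0.115 and 0.753), and without the P22 library to -8.30 and 4.37 (FDR = 0.00734 and 0.0397). *Nfib* also passed without library 14 (FDR = 0.0384), 15 (FDR = 0.0384), the P74 library (FDR = 0.0409) or the P75 library (FDR = 0.0412) of the cell types outside this comparison.

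In OHCs (P22) against SCs, *Nfib* was 35-fold lower (log2 fold change -5.13, SE 1.25, FDR = 0.0296 in edgeR), the only member called, against 8.02% of genes. It was -4.26 without the P21 library (FDR = 0.0315) and -9.01 without the P22 library (FDR = 0.00193), and the call was lost when only these 2 cell types were fitted (FDR = 0.0631) and with the files as attached to the records (-4.79, FDR = 0.206). *Nfia* was 3.07-fold lower (log2 fold change -1.62, SE 0.47, FDR = 0.0609) and *Nfic* 3.18-fold lower (-1.67, SE 0.82, FDR = 0.222). *Nfix* had no stable direction, at 0.25 (SE 1.02, FDR = 0.915) with all libraries and -1.97 without the P21 library. The levels of SC markers given above, 1788 to 2378 CPM in SCs and 10.3 to 19.7 in OHCs (P22), moved with *Nfib*. Their part in the difference was not tested, and in bulk samples fewer cells of a type and less RNA per cell cannot be told apart.

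In the labels the libraries of SCs, cHCs and OHCs (P7) are numbered from 11 to 16, and those of OHCs (P22) and IHCs in a separate series of higher numbers. Comparisons of OHCs (P22) or IHCs with SCs, cHCs or OHCs (P7) cross these series, and the series and the cell type cannot be told apart in them. Cell types within a series also differ in age and mouse line. Within the series of higher numbers, IHCs were higher than OHCs (P22) in *Nfia* (2.84-fold, with an SE of 0.47 on the log2 scale, FDR = 0.163 in edgeR), *Nfib* (12.7-fold, log2 fold change 3.67, SE 1.17, FDR = 0.169) and *Nfic* (4.98-fold, 2.32, SE 0.83, FDR = 0.226). *Nfix* was 3.62-fold lower in IHCs (log2 fold change -1.86, SE 1.05, FDR = 0.418 in edgeR). No member passed, against 1.46% of genes, while 3 had an unadjusted p under 0.05, and limma-voom called 0 and DESeq2 1 (*Nfib*). Over all genes limma-voom called 299 and DESeq2 2042, against 247 in edgeR. Without the P22 library, edgeR also called *Nfib* (7.54, FDR = 0.0147). Within the series of lower numbers, cHCs were above OHCs (P7) in *Nfia* (log2 fold change of OHCs against cHCs -1.31, SE 0.47, FDR = 0.352 in edgeR, against 0.343% of genes called), which limma-voom called (FDR = 0.0446), and DESeq2 called 0 members there. Between these 2 types limma-voom called 378 of all genes and DESeq2 1125, against 58 in edgeR.

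Between the ages of OHCs, P22 against P7, *Nfia* was 3.55-fold lower (log2 fold change -1.83, SE 0.48), *Nfib* 17.9-fold lower (-4.16, SE 1.19) and *Nfic* 3.53-fold lower (-1.82, SE 0.82), and *Nfix* was 12.3-fold higher (3.62, SE 1.13). Their FDRs in edgeR were 0.129, 0.174, 0.357 and 0.21, so none of the 4 passed, against 0.551% of genes. All 4 had an unadjusted p under 0.05, and DESeq2 called 3 of them and limma-voom 0. Over all genes DESeq2 called 1640 there and limma-voom 110, against 93 in edgeR. The share of all genes with an unadjusted p under 0.05 is not given here, for this or any other comparison. Without the P21 library the change in *Nfix* came to 1.48, and without the P22 library that in *Nfib* to -8.04 (FDR = 0.0159). This comparison crosses the series of library numbers, and by the study's methods also the mouse lines.

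In OHCs (P7) against SCs, *Nfix* was 10.4-fold lower (log2 fold change -3.37, SE 1.12, FDR = 0.143 in edgeR), close in size to its difference between cHCs and SCs, which shares the SC libraries. No member passed, against 3.41% of genes, 1 had an unadjusted p under 0.05, and limma-voom called 0 and DESeq2 1. Over all genes limma-voom called 1172 and DESeq2 2682, against 576 in edgeR. The ranges of *Nfix* in cHCs and OHCs (P7) overlapped. In IHCs against cHCs, *Nfia* was 3.1-fold lower (-1.63, SE 0.47, FDR = 0.182 in edgeR, 0 members called against 0.924% of genes, 1 with an unadjusted p under 0.05), which limma-voom (FDR = 0.0155) and DESeq2 (FDR = 0.0244) called. limma-voom called 738 of all genes there and DESeq2 1376, against 156 in edgeR. In IHCs against SCs and in IHCs against OHCs (P7) edgeR called 0 members (2.65% and 0.379% of genes), 0 had an unadjusted p under 0.05, and limma-voom and DESeq2 also called 0.

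Over the 3 native hair cell types together, cHCs were 4.07-fold higher in *Nfia* (log2 fold change 2.03, SE 0.35, FDR = 0.00934 in edgeR). It was the only member called, against 4.26% of genes, and the call was lost without library 16 (1.91, FDR = 0.0681) and with the files as attached to the records (0.46, FDR = 0.895). Of the native types, OHCs (P22) and IHCs have library numbers of the other series, and within the series of cHCs the comparison is the one with OHCs (P7), where edgeR did not call *Nfia* (FDR = 0.352). *Nfib* was 3.51-fold higher (1.81, SE 0.79, FDR = 0.244), and 3.10 without the P22 library (FDR = 0.0116). The mean of the 4 hair cell types against SCs showed lower *Nfib* (log2 fold change -2.07, SE 0.74, FDR = 0.107) and *Nfix* (-2.01, SE 0.72, FDR = 0.109), while *Nfia* in cHCs and in OHCs (P22) lay on opposite sides of SCs. edgeR called 0 members there, against 9.37% of genes, 2 had an unadjusted p under 0.05, and limma-voom called 2 (*Nfib* and *Nfix*) and DESeq2 0. Over all genes limma-voom called 2255 and DESeq2 3424, against 1582 in edgeR. Without the P21 library, edgeR called both *Nfib* (-1.90, FDR = 0.0287) and *Nfix* (-2.61, FDR = 0.0315), without the P22 library *Nfib* alone (-3.04, FDR = 0.0034), and without library 13 *Nfix* alone (-2.45, FDR = 0.0369).

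For any difference among the 5 cell types, *Nfia* passed (FDR = 0.0183 in edgeR), against 7.81% of genes, but not without library 16 (FDR = 0.078) or with the files as attached to the records (FDR = 0.485). *Nfix* (FDR = 0.105), *Nfib* (FDR = 0.133) and *Nfic* (FDR = 0.313) did not, although without library 13 *Nfix* passed, and without the P22 library both *Nfib* and *Nfix* passed. Of the 40 tests of a member between a pair of cell types, edgeR called 2, limma-voom 5 and DESeq2 13. In 26 of the 40 all 4 pairs of libraries had the fitted direction. No share over all genes was computed for that count, and the 40 tests share libraries.

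**Figure D3:**
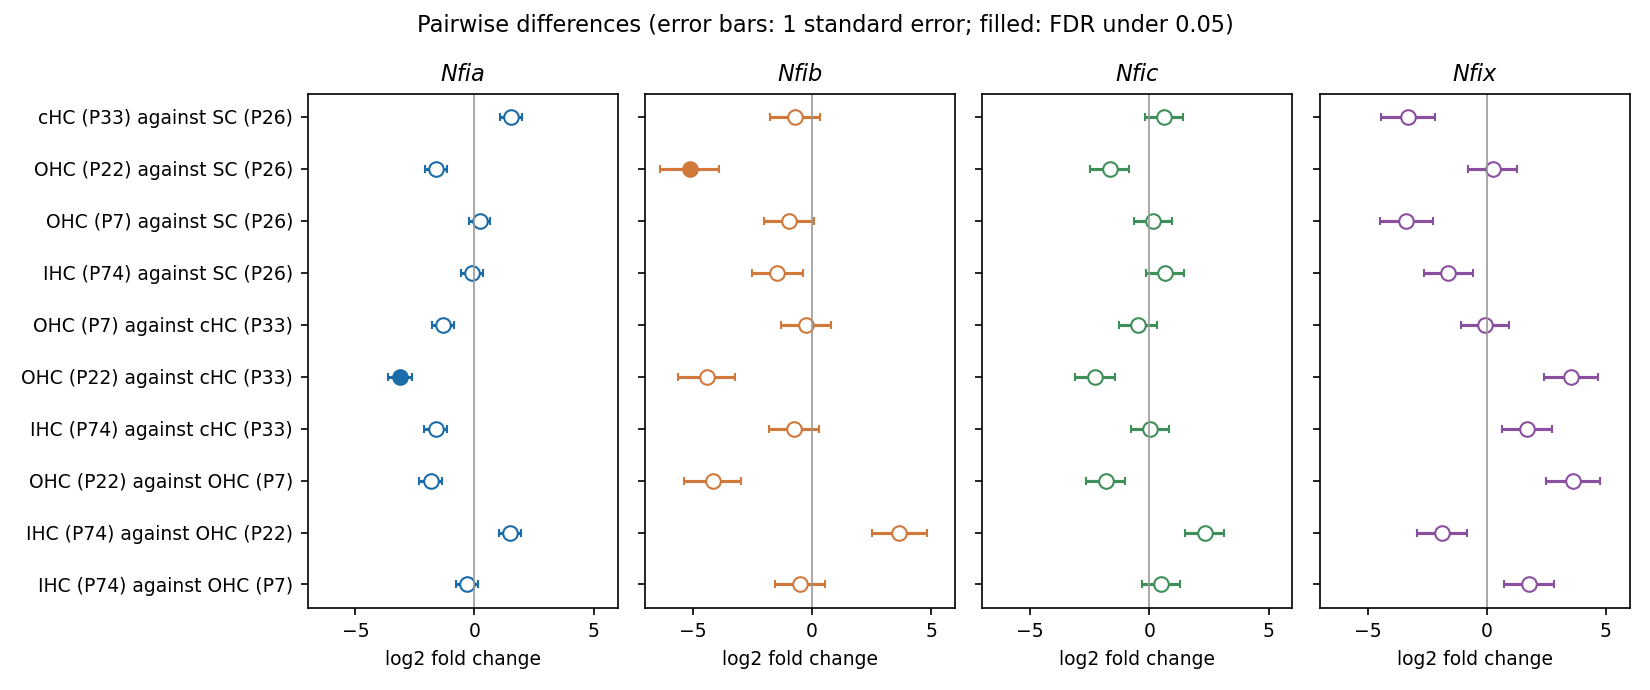
log2 fold change (x axis) of each member in the 10 pairwise comparisons (y axis), with 1 standard error. Filled points have an FDR under 0.05 in edgeR: *Nfia* at -3.14 in OHCs (P22) against cHCs and *Nfib* at -5.13 in OHCs (P22) against SCs.

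*Atoh1*, the gene of the cHC transgene, encodes a basic helix-loop-helix factor that directs hair cell fate, and it was highest where *Nfia* was. It was at 364 and 1812 CPM in cHCs (13 and 16), at most 6.44 CPM in OHCs (P7) and SCs, and without reads in OHCs (P22) and IHCs, and its part in the level of *Nfia* was not tested. Factors of this class bind E-boxes, CANNTG, a motif that reads alike on both strands. The promoter of *Nfia* is shown because *Nfia* was highest in the cells with the *Atoh1* transgene. It runs from 250 bases before the start to 50 after it, from RefSeq, at chr4:97581693-97581992 on the plus strand of build GRCm38.p6, with E-boxes in capitals.
Nfia promoter: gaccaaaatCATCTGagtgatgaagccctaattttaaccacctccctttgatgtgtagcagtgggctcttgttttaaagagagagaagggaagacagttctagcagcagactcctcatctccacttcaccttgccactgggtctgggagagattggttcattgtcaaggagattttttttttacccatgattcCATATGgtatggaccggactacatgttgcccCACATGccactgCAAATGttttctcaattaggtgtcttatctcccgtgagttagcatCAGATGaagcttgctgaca
It holds 5 E-boxes, and 72.3% of the 32851 promoters in the table hold at least 1. The share of promoters with 5 or more was not counted. None of the 5 is CAGCTG, a form of E-box that 16.3% of promoters hold. The shares of promoters with the forms found here, CAGATG among them, were not counted. Which forms ATOH1 binds was not tested. The *Nfia* promoter holds no TTGGC on either strand, the core that NFI proteins bind, which 46.7% of promoters hold. Promoters were given for 3 of the 4 members, 6 in all: the 1 of *Nfic* holds 1 E-box and no TTGGC, and the 4 of *Nfix* hold between 0 and 2 of each. None holds the whole palindrome, present in 0.0365% of promoters. *Nfib* has no entry.

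The genes whose levels were most like each member's over the 10 libraries were found by Pearson's r of log2 CPM, with a prior count of 2. For *Nfia* these were *Nlgn2* (r = 0.974), which encodes a neuroligin of inhibitory synapses, *Nrcam* (0.959), a neuronal cell adhesion protein, and *Itga6* (0.945), an integrin. *Nrcam* stood at 702 and 876 CPM in cHCs and at 23.1 and 51.7 CPM in OHCs (P22). For *Nfib* they were *Bche* (0.975), butyrylcholinesterase, *Epcam* (0.971), an epithelial adhesion protein, and *Hspbp1* (0.971), a chaperone cofactor. *Epcam* stood at 584 and 302 CPM in SCs and at 1.5 and 18.4 CPM in OHCs (P22).

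For *Nfic* the closest genes were *Shmt2* (0.961), a mitochondrial enzyme of serine metabolism, *Sertad1* (0.936) and *Ywhae* (0.936). For *Nfix* they were *Specc1l* (0.927), *Mpnd* (0.921) and *Cmtm6* (0.914). *Mpnd* followed *Nfix* in the P21 library as well, at 140 CPM against 17.5 in the P22 library, and stood at 39.5 and 55.3 CPM in SCs. Among the members, r was 0.85 for *Nfib* and *Nfic*, 0.73 for *Nfia* and *Nfib* and 0.67 for *Nfia* and *Nfic*, and *Nfix* was inversely related to the others (-0.67 with *Nfia*, -0.44 with *Nfib*, -0.56 with *Nfic*). These are descriptions over 10 libraries that share scaling factors, and the P21 library is at an end of the range of all 4 members.

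A list of 20 partners and targets of NFI factors in neural tissue was set beside the members, of which 16 passed the filter on low counts. The most abundant was *Zbtb20*, a zinc finger factor of neurons and glia, at 4781 and 5231 CPM in SCs (11 and 12), 3300 and 2197 in cHCs (13 and 16), 630 and 292 in OHCs (P7), 132 and 377 in OHCs (P22), and 1022 and 1145 CPM in IHCs. SCs were above the other 8 libraries. *Sox9*, a transcription factor that works with NFIA at the onset of gliogenesis, stood at 242 and 402 CPM in SCs, 126 and 16 in cHCs, 5.65 and 2.62 in OHCs (P7), 1.23 and 0.0842 in OHCs (P22), and 96 and 64.5 CPM in IHCs. The cHC library with more *Nfia*, 16, held less *Sox9* than library 13.

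In cHCs against SCs edgeR called 0 of the 16, against 1.84% of all genes, with 6 at an unadjusted p under 0.05. limma-voom and DESeq2 called 5 each of the 16, and 1065 and 1764 over all genes. The median log2 fold change of the 16 was -0.91, against 0.03 over all genes. *Sox9* was at -2.18 (SE 1.09, FDR = 0.375) and *Hes1*, a Notch effector that represses hair cell fate, at -3.63 (SE 1.33, FDR = 0.247). *Fabp7*, a fatty acid binding protein of radial glia and a known NFI target, was at -5.45 (SE 2.73, FDR = 0.378), and the SC libraries themselves disagreed, with 11.8 CPM in library 11 and a level many times higher in library 12.

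In OHCs (P22) against cHCs edgeR called 5 of the 16 lower and none higher, against 3.18% of all genes, with a median of -4.84 against -0.19 over all genes. They were *Zbtb20* (log2 fold change -3.43, FDR = 0.0103), *Cdkn1a*, an inhibitor of the cell cycle (-4.97, FDR = 0.0134), *Sox9* (-6.85, FDR = 0.0238), *S100b*, a calcium-binding protein of glia and SCs (-7.05, FDR = 0.042), and *Hes1* (-6.96, FDR = 0.047; all edgeR). limma-voom called 2 of the 16 and DESeq2 9, and of these 5 limma-voom kept *Zbtb20* alone. With only these cell types fitted, edgeR kept *S100b* alone (*Zbtb20* FDR = 0.0562, *Cdkn1a* 0.0509, *Sox9* 0.107, *Hes1* 0.146).

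In OHCs (P22) against SCs edgeR called 7 lower and none higher (limma-voom 6, DESeq2 12), against 8.02% of genes, with a median of -5.88 against 0.00. *Zbtb20* (-4.30, FDR = 0.00155), *Cdkn1a* (-5.66, FDR = 0.00386), *Sox9* (-9.02, FDR = 0.00465) and *Hes1* (-10.59, FDR = 0.00604) had the smallest p-values. Between the ages of OHCs only *Cdkn1a* passed, lower at P22 (-4.82, FDR = 0.0461; limma-voom called 0 and DESeq2 4), against 0.551% of genes. That call was also lost with RLE factors (FDR = 0.0559) and with only these cell types fitted (FDR = 0.152).

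In OHCs (P7) against SCs edgeR called 4 lower (limma-voom 6, DESeq2 8), against 3.41% of genes, *Zbtb20* (-3.44, FDR = 0.00718), *Hes1* (-8.05, FDR = 0.0231), *Sox9* (-6.28, FDR = 0.0258) and *Aqp4*, a water channel of astrocytes (-9.03, FDR = 0.03). Of these, without library 14 only *Zbtb20* passed (*Hes1* FDR = 0.054, *Sox9* 0.0555, *Aqp4* 0.0759). *Sox9* also fell short without library 15 (FDR = 0.106), and *Hes1* without library 11 (FDR = 0.0711) or with only these cell types fitted (FDR = 0.0639).

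In IHCs against OHCs (P22) edgeR called 2 higher (limma-voom 0, DESeq2 8), against 1.46% of genes, *Sox9* (7.02, FDR = 0.0345) and *Hes1* (8.07, FDR = 0.0453), alongside the SC marker sums of 834 to 981 CPM in IHCs, whose part was not tested. Both calls were lost with limma-voom (FDR = 0.104 and 0.0812) and with only these cell types fitted (FDR = 0.121 and 0.152). *Sox9* was also lost without the P22 library (FDR = 0.0601), and *Hes1* without library 11, the P21, the P22 or the P75 library (FDRs between 0.0564 and 0.207).

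In cHCs against the native hair cells edgeR called 3 higher (limma-voom 2, DESeq2 7), against 4.26% of genes, *Zbtb20* (2.45, FDR = 0.006), *S100b* (4.35, FDR = 0.0268) and *Sox9* (3.59, FDR = 0.0299). In the mean of hair cells against SCs edgeR called 7 lower and 1 higher (limma-voom 9 in all, DESeq2 12), against 9.37% of genes, led by *Zbtb20* (-2.70, FDR = 0.00128), *Hes1* (-6.20, FDR = 0.0018), *Aqp4* (-7.12, FDR = 0.00185) and *Sox9* (-4.87, FDR = 0.00246). The 1 higher was *Cdh2* (8.97, FDR = 0.0447), which encodes N-cadherin and was named after its values were seen. It was lost with limma-voom (FDR = 0.0539) and without SC library 11 (FDR = 0.164) or 12 (FDR = 0.145). There *Cdkn1a* was lost without library 11 (-1.76, FDR = 0.199) and *Fabp7* without library 12 (-4.37, FDR = 0.327).

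The calls of *Zbtb20* held without any 1 of the 10 libraries. That of *Sox9* in cHCs against the native hair cells was lost without cHC library 13 (1.44, FDR = 0.593) and with limma-voom (2.91, FDR = 0.171), and that of *S100b* there without library 13 (3.55, FDR = 0.181), 15 (FDR = 0.0514) or the P22 library (FDR = 0.0555). The calls of *Hes1* and *S100b* in OHCs (P22) against cHCs were lost without the P21 library, the P22 library or library 13, and that of *Hes1* also without library 11 (FDR = 0.0597). In OHCs (P22) against SCs, *S100b* was lost without library 11, the P21 or the P22 library and with limma-voom (FDRs between 0.0667 and 0.0968), and *Sox2* without the P21 (FDR = 0.064) or the P22 library (FDR = 0.0566). The call of *Cdkn1a* between the ages of OHCs was lost without the P21 library, the P22 library or library 14. Fitted changes of genes with a few reads in OHCs, such as *Sox9* and *Hes1*, depend on the prior count of the fit and are not bounds.

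In OHCs (P7) against cHCs edgeR called 0 of the 16, against 0.343% of genes, with 4 at an unadjusted p under 0.05, and limma-voom called 1 and DESeq2 4. IHCs against cHCs gave 0 in edgeR, against 0.924% of genes, 3 at an unadjusted p under 0.05, and 1 each in limma-voom and DESeq2. For IHCs against SCs these numbers were 0, 7, 3 and 6, and for IHCs against OHCs (P7) 0, 6, 0 and 4. In these 2 comparisons edgeR called 2.65% and 0.379% of genes. For any difference among the 5 cell types 5 passed in edgeR, against 7.81% of genes. Over all genes limma-voom and DESeq2 called more than edgeR in every comparison, so their counts cannot be set against edgeR's shares. Of the 20 listed genes, 3 (*Sox9*, *Sox2* and *Hes1*) are also in the list of SC markers, whose summed level moved with them.

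**Figure D4:**
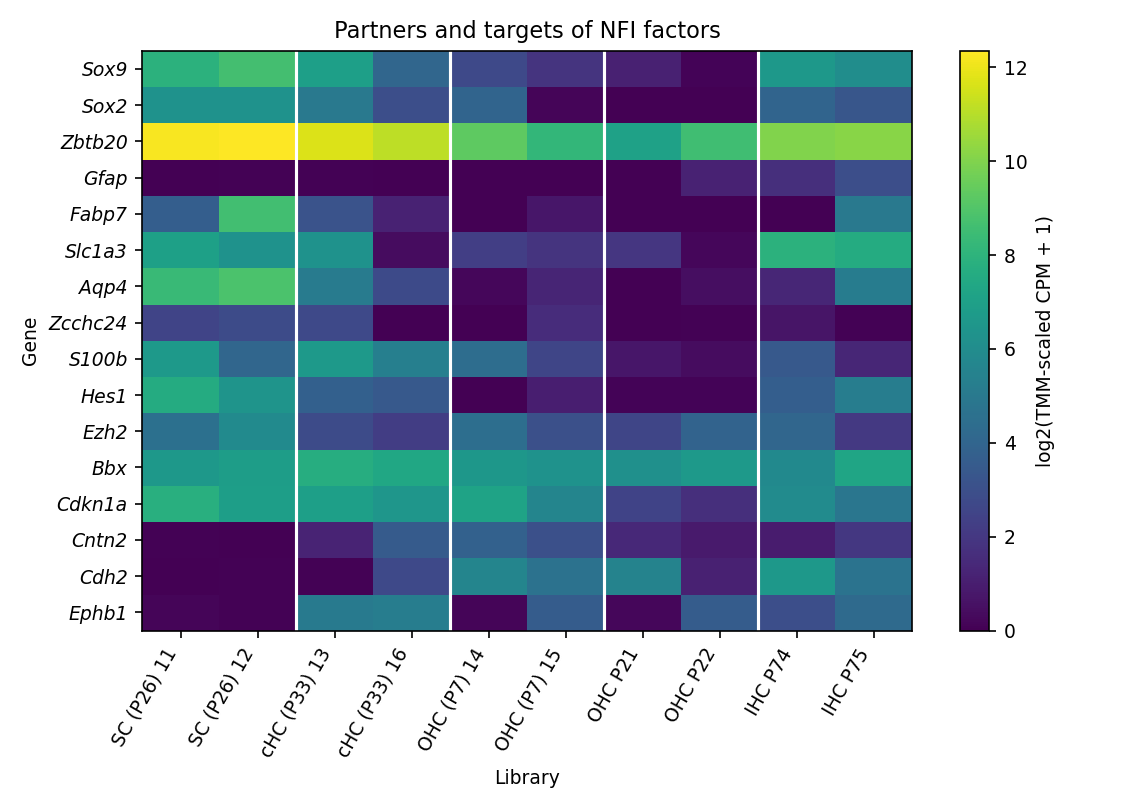
log2(TMM-scaled CPM + 1) of the 16 partners and targets that passed the filter (rows) in each of the 10 libraries (columns, white lines between cell types). *Zbtb20* falls from 4781 and 5231 CPM in SCs to 132 and 377 in OHCs (P22), and *Sox9* from 242 and 402 to 1.23 and 0.0842.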

How the data were processed

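Total RNA of handpicked cells was amplified by single primer isothermal amplification and sequenced as paired ends. The authors called bases with Casava 1.7, trimmed with Cutadapt, mapped to mm9 with STAR and BWA, and deposited raw HTSeq counts per gene, without normalization. No molecular identifiers were used, so several reads can come from the same molecule. Reads assigned to no feature (31.5% to 61.8%, highest in both OHC (P22) libraries) were left out of library sizes.

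The counts attached to 4 of the 10 sample records belonged to another library. Each file was matched to its library by a constant ratio to the study's CPM table (coefficient of variation at most 0.000138%, against at least 170% for all other pairs). The files as attached were an alternative.

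Tests used edgeR 4.0.16 in R 4.3.3 (TMM, filterByExpr, quasi-likelihood F-test, 1 model of 10 libraries), with Benjamini-Hochberg adjustment over 16891 genes. The standard error is the log2 fold change divided by the square root of F. Alternatives were limma 3.58.1 voom, DESeq2 1.42.0, RLE factors, 2 other filters, fewer cell types and leaving out each library. The 3 tools were tested on simulated data. Exon lengths came from GENCODE for mm9, promoters from RefSeq (GRCm38.p6). Tables and figures were made with Python 3.11.15, pandas 2.3.3 and matplotlib 3.10.9.

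The members, the list of 20 partners and targets and the marker lists were chosen with earlier results of these data known. Genes named are the members, the 3 genes most correlated with each, and of the list the called genes (at most 4 a comparison, by smallest p) with *Sox9*, *Hes1* and *Fabp7*. Single genes named to describe the marker sums were chosen after their values were seen.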

Additional observations from a re-analysis of the deposited data

How the results depend on the processing

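In the comparisons of members, limma-voom called 1 member in cHCs against SCs, OHCs (P7) against cHCs and IHCs against cHCs (edgeR 0 in each) and 2 in the mean of hair cells against SCs (edgeR 0). DESeq2 called 2 in cHCs against SCs, 3 in OHCs (P22) against cHCs, 2 in OHCs (P22) against SCs, 1 in IHCs against cHCs, 3 in OHCs (P22) against OHCs (P7), 1 in IHCs against OHCs (P22), 1 in OHCs (P7) against SCs and 3 for any difference. With no filter on low counts (23415 genes), edgeR called 1, 4, 2, 1, 1, 2, 2 and 3 in cHCs against SCs, OHCs (P22) against cHCs, OHCs (P22) against OHCs (P7), IHCs against OHCs (P22), OHCs (P7) against SCs, cHCs against native hair cells, hair cells against SCs and any difference. Over all genes these settings called more too: in OHCs (P22) against cHCs 930 with limma-voom, 2726 with DESeq2 and 1591 with no filter, against 537. In OHCs (P22) against SCs these numbers were 1897, 4160 and 2531, against 1354. For cHCs against native hair cells they were 1206, 1859 and 1978, against 719. For any difference they were 2273, 4396 and 4067, against 1320. Among genes above 35 CPM in 2 or more libraries edgeR called 2 members in OHCs (P22) against cHCs and 2 against SCs. With only the cell types compared, the 1 call in OHCs (P22) against SCs became 0. With the files as attached to the records, the calls in OHCs (P22) against cHCs, OHCs (P22) against SCs, cHCs against native hair cells and any difference all became 0, and 3 values reversed: *Nfia* (-0.62) and *Nfic* (-1.37) in cHCs against SCs and *Nfia* in OHCs (P7) against cHCs (0.81). Over all genes that setting called 1 in cHCs against native hair cells and none in the other comparisons. *Nfix* in OHCs (P22) against SCs reversed with limma-voom (-0.74), and ran from -1.97 to 1.07 as single libraries were left out. The cause of these shifts was not tested. RLE factors changed no call of a member.

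Leaving out each library in turn, members called ranged from 1 to 3 in OHCs (P22) against cHCs, 0 to 1 in OHCs (P22) against OHCs (P7) and in IHCs against OHCs (P22), 0 to 2 in cHCs against native hair cells and in hair cells against SCs, and 0 to 3 for any difference. It stayed at 1 in OHCs (P22) against SCs. Where a type was left with 1 library, that library was assumed to vary like the others. Without division by exon length, *Nfib* rose as a share of the family (32% in SCs, against 21%) and *Nfic* fell (35.2% in IHCs, against 47.3%), and *Nfia* led in cHCs on both scales (64.9% and 59.3%). The alternatives for the 20 partners and targets were added after seeing the data: genes called ranged, as single libraries were left out, from 3 to 8 in OHCs (P22) against cHCs, 5 to 10 in OHCs (P22) against SCs, 0 to 2 in OHCs (P22) against OHCs (P7), 1 to 7 in IHCs against OHCs (P22), 1 to 6 in OHCs (P7) against SCs, 1 to 5 in cHCs against native hair cells, 6 to 10 in hair cells against SCs and 5 to 9 for any difference. Of the 30 calls, 20 held with limma-voom, 30 with DESeq2 and 0 with the files as attached. No paired analysis was possible because the cell types share no replicate numbers. The precision is limited by 2 libraries a cell type and a common dispersion of 1.12.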
